A study of Mus musculus with 3 samples.

Results

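The 4 mouse Hox clusters were read in RNA of 2-cell embryos as 512 windows of 1 kb. The members are all such windows of 4 stretches of the mm9 genome. The stretches were set by position, although earlier results of these data were known when they were chosen. They are chr6:52104001-52218000 (Hoxa, 114 windows), chr11:96055001-96230000 (Hoxb, 175 windows), chr15:102752001-102870000 (Hoxc, 118 windows) and chr2:74500001-74605000 (Hoxd, 105 windows). The nuclear sequence of the files holds 2725730 such windows, 2472334 of them on the 19 autosomes.

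There was 1 group of 3 libraries, each made from a litter of 2-cell embryos at embryonic day 1.5, numbered litters 1 to 3. The mothers, of mixed strain, were homozygous for a floxed LSD1 allele (LSD1 FL/FL) and negative for ZP3::Cre, a transgene whose Cre recombinase is driven in growing oocytes by the Zp3 promoter. All 3 litters share this maternal genotype. One label gives the fathers as C57/Bl6J and another as CB6 males of wild type. Embryos of a litter were pooled, and a low level in every embryo cannot be told apart from a higher level in few. With 1 group there is no contrast between conditions, and the comparisons here are between clusters, their surroundings and the autosomes.

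Hox genes encode homeodomain transcription factors that give cells along the head-to-tail axis their identity. They lie in clusters, and their order along the chromosome follows the order in which they are switched on in time and along the body. They act after gastrulation begins, and in early embryonic cells the clusters are known as targets of Polycomb repression. The gene table of RefSeq for GRCm38.p6 lists 39 Hox genes in the 4 clusters, 11 in Hoxa, 10 in Hoxb, 9 in Hoxc and 9 in Hoxd. It also lists 6 microRNA genes there (Mir10a and Mir10b, Mir196a-1, Mir196a-2 and Mir196b, and Mir615) and 24 long noncoding RNA genes. Among the latter are Hotair in Hoxc, studied as a regulator of chromatin, and Hotairm1 in Hoxa. A single pseudogene is listed, Gm11539, between Hoxb13 and Hoxb9 in gene order. That build is not the one of the files, so only the order of the genes was used, and no window is assigned to a gene. Hoxa13 stands at the high-coordinate end of Hoxa. In the other clusters Hoxb13, Hoxc13 and Hoxd13, which pattern the tail end, stand at the low end, and Hoxb1, Hoxc4 and Hoxd1 at the high end.

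The files give coverage at each base. From it 72-base alignments were recovered, with nuclear totals of 34014013, 32431630 and 40474940 for litters 1 to 3. The clusters held 1829, 2081 and 2531 alignment starts. Levels are in RPKM, here the alignments in 1 kb for each 1000000 alignments to nuclear sequence, and they do not separate exons from introns or one strand from the other. A count of 0 in a 1 kb window allows up to 3 alignments by counting error alone, which equals 0.0882, 0.0925 and 0.0741 RPKM in litters 1 to 3. Since the cDNA was amplified and carries no molecular identifiers, this limit covers counting error only.

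Most windows of the clusters held no alignment. Over the clusters together, the share that did was slightly above that of the autosomes in each litter, through Hoxb. By their means over litters, Hoxa, Hoxc and Hoxd each lay below the autosomal mean. A window is called covered when at least 1 alignment starts in it. In litter 1, 64 of 512 windows (12.5%) were covered, against 11.8% of autosomal windows. In litter 2 the count was 83 (16.2%), against 14.3%, and in litter 3 it was 76 (14.8%), against 11.2%. In any litter, 137 windows (26.8%) were covered, against 21.1% of autosomal windows, and 375 were empty in all 3. In all litters, 27 windows (5.27%) were covered, against 5.5% of autosomal windows, a share near the background. Leaving out autosomal stretches of over 50 kb with no alignment raised that background to 6.11%, and those of the single litters to 13.1%, 15.9% and 12.4%, so that litter 1 of the clusters fell below it.

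The clusters differed from each other in how many windows were covered. Hoxb had 37, 46 and 43 covered windows of 175 in litters 1 to 3, or 24.0% ± 2.62 (SD, n = 3). Hoxa had 13, 17 and 11 of 114, or 12.0% ± 2.68. Hoxd had 8, 13 and 12 of 105, or 10.5% ± 2.52, and Hoxc had 6, 7 and 10 of 118, or 6.50% ± 1.76. With coverage set at 1 alignment, every litter of Hoxb lay above every litter of the other clusters and of the autosomes. Every litter of Hoxc lay below every litter of Hoxa and Hoxb. Hoxc and Hoxd overlapped, since Hoxc in litter 3 (8.47%) was above Hoxd in litter 1 (7.62%). Hoxa and Hoxd overlapped as well, and the ranges of both overlapped that of the autosomes.

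**Figure D1:**
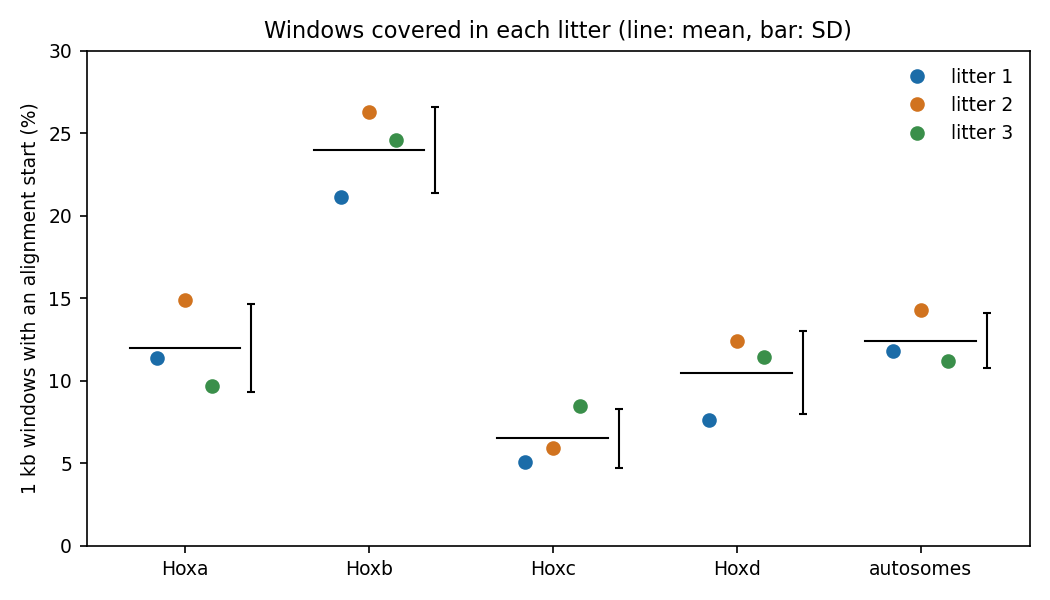
Percent of 1 kb windows with an alignment start in each Hox cluster and on the autosomes. Points are litters, the line is their mean and the bar beside it the SD (n = 3). Hoxb lies at 21.1% to 26.3%, above the autosomes at 11.2% to 14.3%, and Hoxc lies at 5.08% to 8.47%.

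Many covered windows held a single alignment. Of covered windows in the 4 clusters, 30 of 64 held 1 alignment in litter 1, 46 of 83 in litter 2 and 44 of 76 in litter 3. Windows with 3 or more alignments numbered 19, 24 and 23. With coverage set at 3 or more alignments, 4.30% ± 0.517 of cluster windows passed, against 7.76% of autosomal windows, and 1.17% passed in all litters, against 3.36%. The clusters together were thus above the autosomal mean of 12.4% at 1 alignment (14.5% ± 1.88) and below it at 3. Hoxb alone had a mean above it at 1 alignment, while Hoxa (12.0%), Hoxd (10.5%) and Hoxc (6.50%) lay below. Requiring 2 distinct start positions gave the same order, with 6.71% against 8.85% per litter and 1.37% against 3.89% in all litters. Hoxb alone had 15, 14 and 13 of 175 windows with 3 or more alignments in litters 1 to 3, near the autosomal 7.76%. Most of its covered windows held 1 or 2 alignments.

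Few windows held more than a handful of alignments in every litter. Of the 27 windows covered in all litters, 6 had at least 3 alignments in each, 2 in Hoxa and 4 in Hoxb (1.17% of 512, against 3.36% of autosomal windows), and 14 had no base that all litters covered. In Hoxc, the window from 102866001 to 102867000 was the only one covered in all litters, with 1, 3 and 3 alignments. Hoxd had 5 such windows, and none of them exceeded 6 alignments in any litter. They lay between 74568001 and 74587000, in the high-coordinate part of the cluster. A window reached 1 RPKM in all litters in 3 cases of 512 (0.586%), 1 in Hoxa and 2 in Hoxb, against 1.21% of autosomal windows.

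**Figure D2:**
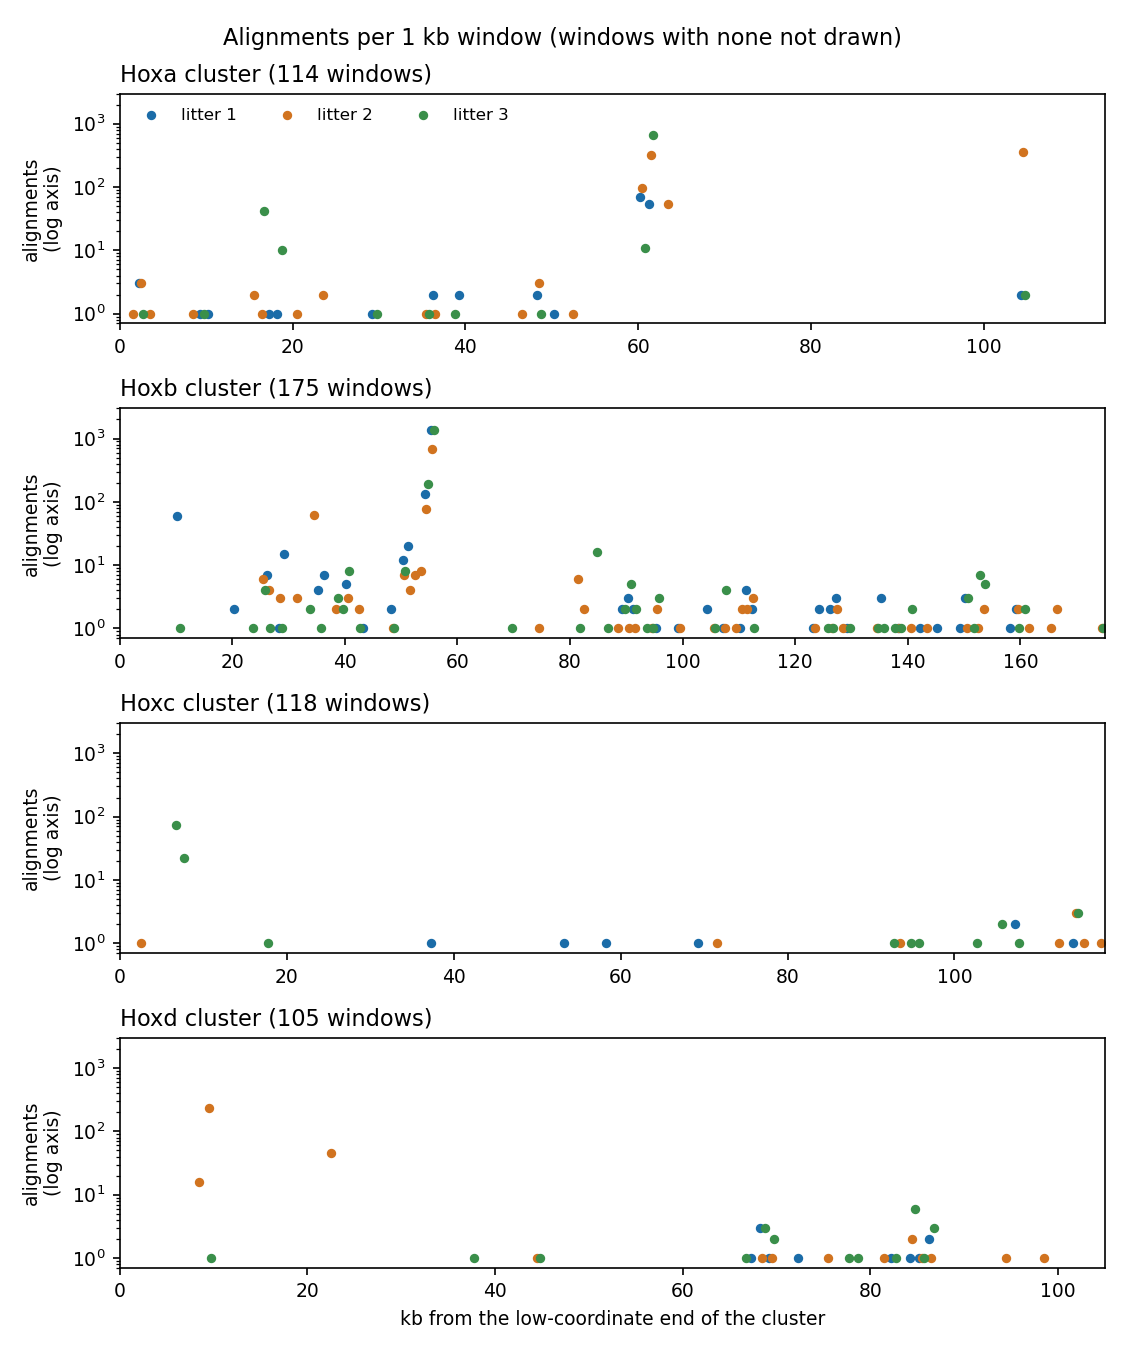
Alignments in each 1 kb window (log axis) along the 4 clusters, in kb from the low-coordinate end, with a colour for each litter and empty windows not drawn. Most points lie at 1 or 2 alignments. In Hoxa the points of all litters rise at 60 to 61 kb and in Hoxb at 54 to 55 kb, while the high points of Hoxc and Hoxd belong to a single litter.

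Stretches covered in every litter were rare. A block was defined as a stretch of at least 72 bases covered in all litters, with gaps of up to 100 bases joined. There were 5 blocks in the 0.512 Mb of the clusters, 4 in Hoxb, 1 in Hoxa and 0 in Hoxc and Hoxd. That is 9.77 per Mb, against 34.9 per Mb on the autosomes. Blocks took up 0.366% of cluster bases, against 0.826% of autosomal bases. By bases, Hoxa reached 0.854%, close to the autosomes, through its single block of 974 bases, and Hoxb reached 0.514%. The count rested on all 3 litters being required: with any pair of litters it was 9 to 16. Blocks of pairs were not counted on the autosomes, so the 34.9 per Mb is no background for those counts.

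The block of Hoxa lay at chr6:52164893-52165866, starting 60.9 kb from the low-coordinate end, or 53.4% of the way along the cluster. It was overlapped by 116, 378 and 659 alignments in litters 1 to 3, which is 3.41, 11.7 and 16.3 per 1000000 nuclear alignments. These came from 100, 281 and 262 distinct start positions. Litter 1 was the lowest, and the value of litter 3 was 4.77-fold higher. All litters covered 884 of the 974 bases. The block held 83.5%, 44.7% and 89.4% of the alignments of the Hoxa cluster in litters 1 to 3.

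Within the Hoxa block the litters were not deep at the same place. In litter 3, a share of 80.7% of the alignments starting in the block did so in its bases 401 to 600. In litter 2 this stretch held 31.1% and in litter 1 it held 18.5%. In litter 1 the first 100 bases held the largest share, 40.2%, where litter 3 had 1.52%. The highest coverage of a base was 34, 75 and 267 alignments in litters 1 to 3. Only 5 start positions of the block had alignments in every litter and 6 or more in all, so a search for other places with the same counts could not be made by the rule applied to the Hoxb block.

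The longest block of Hoxb lay at chr11:96109913-96110557, 54.9 kb from the Hoxb13 end and 31.4% of the way along. It held 1496, 759 and 1563 alignments in litters 1 to 3, or 44.0, 23.4 and 38.6 per 1000000 nuclear alignments. The 100 bases from base 301 held the largest share of the alignments starting in the block in each litter, 31.4%, 32.2% and 37.4%. Bases 401 to 600 held 44.9%, 45.4% and 34.9%, the lowest share in litter 3. Of its 645 bases, 560 were covered in every litter. The block held 89.5%, 82.8% and 93.8% of all alignments of the Hoxb cluster.

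**Figure D3:**
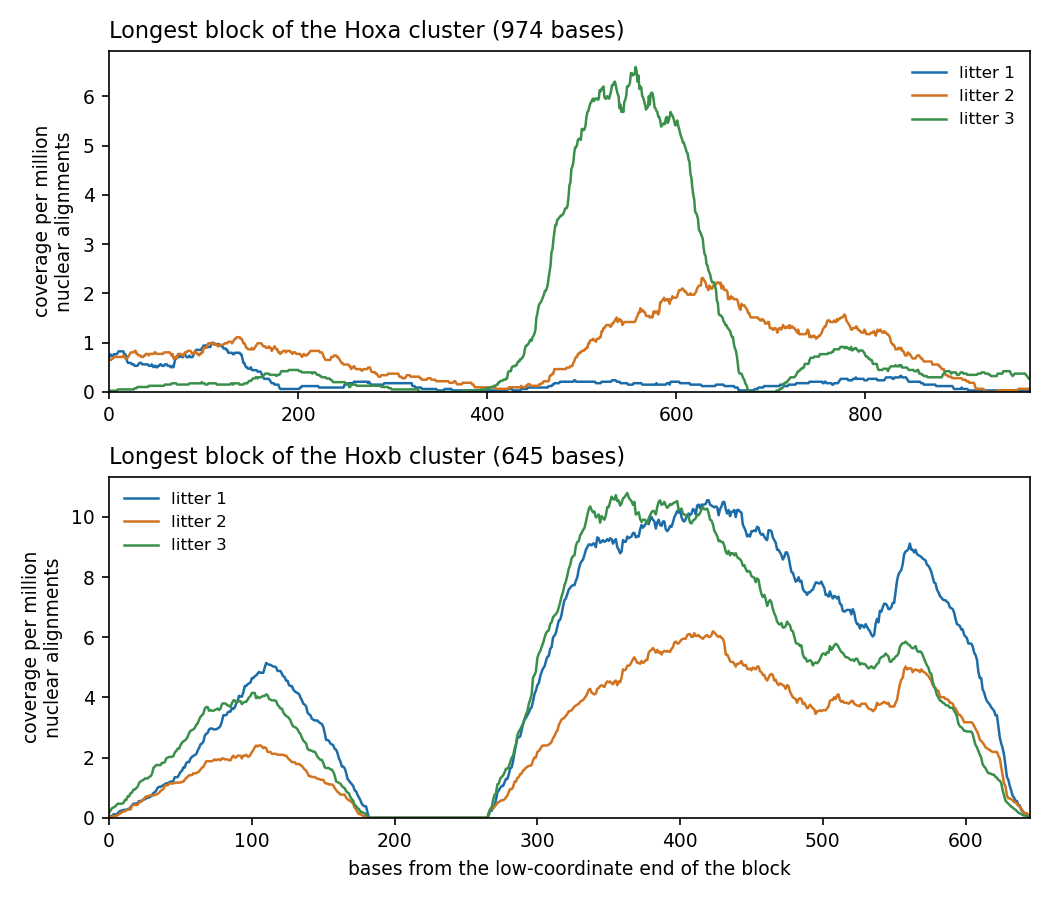
Coverage per 1000000 nuclear alignments, with a line for each litter, along the Hoxa block of 974 bases (top) and the Hoxb block of 645 bases (bottom), in bases from the low-coordinate end. In the Hoxa block litter 3 peaks between bases 401 and 600 where litter 2 is lower and litter 1 lower still, while in the Hoxb block all 3 lines are high between bases 301 and 600, and litter 3 runs below litter 1 in the later part of that stretch.

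Alignments in the Hoxb block recurred at other places in the genome. Of its 409 start positions, 228 had an alignment in every litter and 6 or more in all. Of these 228, 176 (77.2%) had exactly the same 3 counts at the matching position of another place. These positions carried 60.3%, 65.0% and 59.6% of the block's alignments in litters 1 to 3. The best match was chr2:36663321-36663666, in reverse orientation, with 124 equal positions (54.4%). The stretch chr6:128263621-128263966 had 103 equal positions (45.2%) and chr7:52975661-52975859 had 66 (28.9%). Fewer positions matched at chr11:76327792-76327939 (34), chr6:83791972-83792142 (24) and chr2:132040887-132041051 (16). From these files, the place in the genome that such alignments came from cannot be told apart. A first, looser rule took positions with 4 or more alignments in any litters, and the present rule replaced it after its values were seen. By the looser rule the best match of the Hoxb block was 164 of 332 positions and that of the Hoxa block 10 of 89, and in the Hoxa window from 52208001 to 52209000 it was 12 of 24, with counts there almost all from 1 litter.

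The 3 other blocks of Hoxb were small. The block at chr11:96095527-96095637 (111 bases) held 4, 3 and 8 alignments in litters 1 to 3. The block at chr11:96081027-96081098 held 6, 2 and 1, and that at chr11:96146232-96146303 held 2, 1 and 2. Both of these are exactly 72 bases long, the length of an alignment.

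Some windows were well covered in 1 litter and nearly empty in the others. Of the 512 windows, 8 had over 30 alignments in 1 litter and at most 3 in each other litter (1.56%, against 1.76% of autosomal windows, a share near the background). They were 3 in Hoxa, 2 in Hoxb, 1 in Hoxc and 2 in Hoxd. The highest was the Hoxa window from 52208001 to 52209000, near the Hoxa13 end, with 362 alignments in litter 2 and 2 in each other litter. In Hoxd, the window from 74509001 to 74510000 held 0, 238 and 1 in litters 1 to 3. In Hoxc, the window from 102758001 to 102759000 held 73 in litter 3 and 0 in the other litters. These counts came from 189, 168 and 66 distinct start positions. Litter 2 was the high litter in 5 of the 8 windows, litter 3 in 2 and litter 1 in 1.

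Covered windows were mostly shared less between litters than on the autosomes. Litters 1 and 2 shared 34 windows, 53.1% of those of litter 1 and 41.0% of those of litter 2, against 64.6% and 53.1% on the autosomes. Litters 1 and 3 shared 37, or 57.8% and 48.7%, against 57.1% and 60.0%. Litters 2 and 3 shared 42, or 50.6% and 55.3%, against 51.0% and 65.1%. Of windows covered in any litter, 56.9% were covered in a single litter, against 49.9% on the autosomes. Hoxc stood at 90.0%, with 18 of 20 windows, and Hoxb at 47.2%, with 34 of 72.

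Position along the cluster differed between the 4. Each cluster was divided into 4 parts of near equal length, from the low to the high end. A part had 28 or 29 windows in Hoxa, 43 or 44 in Hoxb, 29 or 30 in Hoxc and 26 or 27 in Hoxd. Of autosomal windows, 21.1% were covered in any litter. In Hoxa, windows covered in any litter numbered 12, 9, 3 and 1, so they were most frequent away from Hoxa13, and a stretch of 41006 bases (52167488 to 52208493) had no alignment in any litter. In Hoxd they numbered 3, 2, 8 and 7, most in the part toward Hoxd1. In Hoxc they numbered 4, 3, 2 and 11, most toward Hoxc4. In Hoxb they numbered 17, 13, 22 and 20, and the longest empty stretch was 13954 bases, against 21214 in Hoxc and 21847 in Hoxd. In Hoxc and Hoxd more windows covered in any litter thus lay on the side of Hoxc4 and Hoxd1. Litter 1 of Hoxc did not show this, with 0, 3, 1 and 2 covered windows. In Hoxb, too, the 2 parts on the side of Hoxb1 held more covered windows than those on the side of Hoxb13. Alignments went the other way in 1 litter each. The Hoxc13 end held 96 in litter 3, against 10 at the Hoxc4 end. The Hoxd13 end held 299 in litter 2, against 7 at the Hoxd1 end. In the other litters the Hoxc4 and Hoxd1 ends held more. These counts were not tested, since windows of a library are not replicates.

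The level of the clusters was compared with the median of the 19 autosomes, which was 0.340, 0.346 and 0.366 RPKM in litters 1 to 3. The 4 clusters together had 0.105, 0.125 and 0.122 RPKM, or 0.335 ± 0.0268 of the median autosome (SD, n = 3). The 2 long blocks of Hoxa and Hoxb made up 88.1%, 54.6% and 87.8% of all cluster alignments.

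Hoxb had 0.281, 0.162 and 0.235 RPKM in litters 1 to 3, or 0.645 ± 0.180 of the median autosome. Without the block positions whose counts recurred elsewhere, left out after they were seen, it had 0.129, 0.0747 and 0.104 RPKM, or 0.293 ± 0.0827. Positions too shallow for the search were kept in this value, so it may still hold alignments from elsewhere. Hoxa had 0.0358, 0.229 and 0.160 RPKM, or 0.401 ± 0.279. Hoxd had 0.00308, 0.0910 and 0.00518 RPKM, or 0.0955 ± 0.145, and litter 2 stood far above the others. Hoxc had 0.00174, 0.00235 and 0.0222 RPKM, or 0.0242 ± 0.0316, and litter 3 stood apart. On the log2 scale the mean differences from the median autosome were -0.67 for Hoxb, -1.68 for Hoxa, -4.95 for Hoxd and -6.28 for Hoxc. Without litter 2 the value of Hoxd was -6.47, and without litter 3 that of Hoxc was -7.40. Without litter 1 the value of Hoxa was -0.90.

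Each cluster lay below the median autosome in 3 of 3 litters. Flipping the signs of the log2 differences in all ways, an exact permutation test (two-sided), gave p = 0.25 for each cluster, the smallest p that 3 litters allow, and 0.286 after Benjamini-Hochberg adjustment over 8 tests (4 clusters against the median autosome and against their flanks). Hoxb lay above Hoxd and Hoxc in every litter, while Hoxa lay above Hoxb in litter 2 and below it in litters 1 and 3. Neighbours in the order Hoxb, Hoxa, Hoxd and Hoxc overlapped in their ranges over litters.

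Without the blocks of at least 500 bases, the levels of Hoxa and Hoxb were lower, which follows from leaving out their deepest stretches. Hoxb then had 0.0297, 0.0280 and 0.0146 RPKM, or 0.0694 ± 0.0257 of the median autosome. Hoxa had 0.00599, 0.127 and 0.0171 RPKM, or 0.144 ± 0.195. Leaving out also the 8 windows that were high in 1 litter gave 0.0495 ± 0.00939 for Hoxb, 0.0262 ± 0.0133 for Hoxa, 0.0155 ± 0.00722 for Hoxd and 0.0104 ± 0.00756 for Hoxc. Hoxb then still lay above each other cluster in every litter. Both the blocks and the windows were left out after their values had been seen. Nothing was left out of the autosomes, so these ratios to the median autosome are not like for like.

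**Figure D4:**
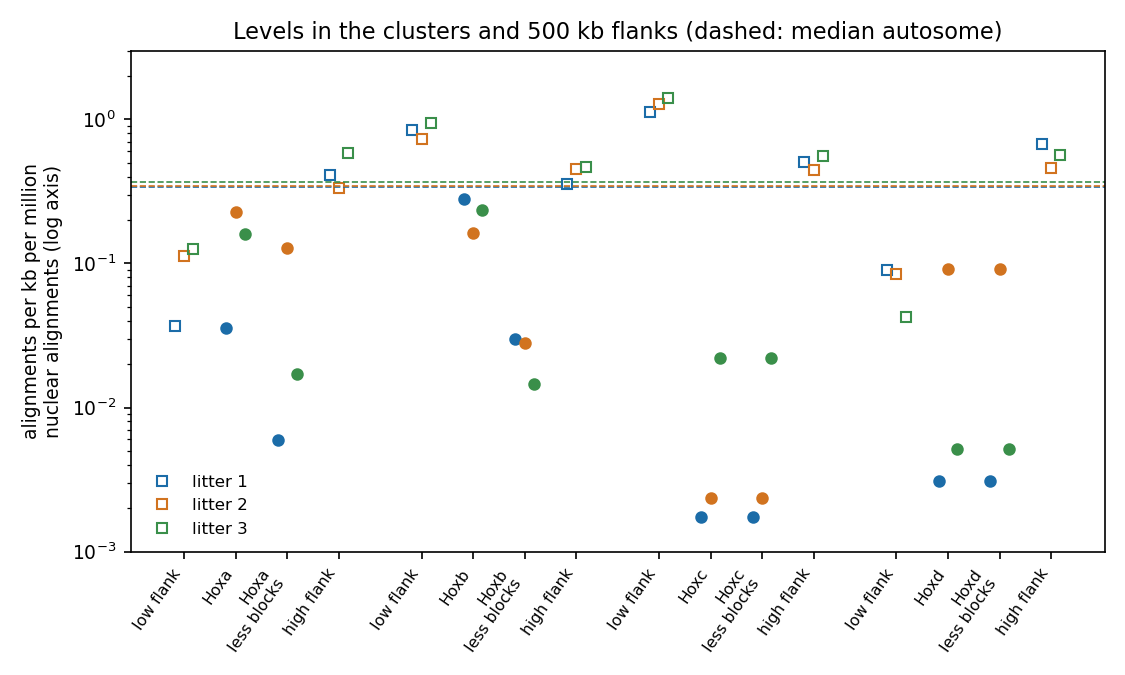
Level of each cluster and of the cluster without its blocks of at least 500 bases (filled circles), and of 500 kb on its low and high side (open squares), in RPKM on a log axis with a colour for each litter. Dashed lines are the median autosome at 0.340 to 0.366. All cluster points lie below the lines, Hoxc and Hoxd mostly by over 10-fold, and both flanks of Hoxb and of Hoxc lie above the line of their litter.

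Most autosomal sequence lay below the median autosome. Of 24712 autosomal tiles of 100 kb, 23976 held any alignment, and their median was 0.0268 RPKM, with quartiles of 0.00459 and 0.230. By mean level over litters, Hoxb lay above 74.8% of these tiles, Hoxa above 69.4%, Hoxd above 52.5% and Hoxc above 35.1%. Without the recurring block positions Hoxb lay above 65.7%. Without litter 2 Hoxd lay above 27.2%, and without litter 3 Hoxc lay above 12.4%. Against the median tile of each litter, the log2 difference was 2.38 for Hoxa and 3.39 for Hoxb, so their direction turned, and -0.89 for Hoxd and -2.22 for Hoxc. Hoxd and Hoxc were each below the median tile in 2 of 3 litters only. Hoxd stood at 3.32 times it in litter 2 and Hoxc at 1.32 times it in litter 3.

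The 500 kb on either side of each cluster were read in the same way. The nearest protein-coding genes in gene order are Skap2 and Evx1 around Hoxa, Ttll6 and Skap1 around Hoxb, Calcoco1 and Smug1 around Hoxc, and Evx2 and Mtx2 around Hoxd. Evx1 and Evx2 are homeobox genes related to the clusters. The flanks of Hoxc had 0.886 ± 0.0833 RPKM (SD, n = 3), or 2.52 ± 0.136 times the median autosome. Those of Hoxb had 0.632 ± 0.0619, those of Hoxd 0.319 ± 0.0572 and those of Hoxa 0.268 ± 0.0753 RPKM.

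By its mean over litters Hoxc was the cluster farthest below its flanks, although Hoxd was farther below in litter 3. The level of Hoxc was 0.00213, 0.00274 and 0.0227 of its flanks in litters 1 to 3, a mean log2 difference of -7.62 ± 1.87 (SD, n = 3). Hoxd stood at 0.00805, 0.335 and 0.0171 of its flanks, or -4.80 ± 2.85, and without litter 2 at -6.41. Hoxb stood at 0.469, 0.272 and 0.334, or -1.52 ± 0.397. Hoxa stood at 0.160, 1.02 and 0.450, or -1.26 ± 1.34, and was not below its flanks in litter 2. The exact sign-flip permutation test gave p = 0.25 (0.286 adjusted) for Hoxb, Hoxc and Hoxd, each lower in 3 of 3 litters. By distinct start positions Hoxd stood at 1.09 times its flanks in litter 2, so that it was lower in 2 of 3 litters (mean log2 difference -2.44, exact permutation p = 0.5). For Hoxa this exact test gave p = 0.5 (0.5 adjusted), with 2 of 3 litters lower.

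The flanks themselves were uneven. On the high side of Hoxd, the 10 kb from 75025001 to 75035000, 420 kb away, held 95.9% of the alignments of that flank on average over litters, and without it the flank had 0.0141, 0.0289 and 0.0229 RPKM. On the low side of Hoxa, the 10 kb from 51804001 to 51814000 held 82.1%. In the other flanks the strongest 10 kb held 22.7% to 62.9%. With the median of 10 kb flank windows and a pseudocount of 0.1 in place of the flank mean, the log2 difference was 1.14 for Hoxa, 1.40 for Hoxb and 0.35 for Hoxd, so the direction turned, and -0.09 for Hoxc. For Hoxa and Hoxb the differences from the flanks therefore hold for mean levels and not for the typical flank window. The levels of Hoxc and Hoxd were below the pseudocount in every litter. This setting thus cannot place them against the typical flank window.

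Outside the clusters, the nearest windows at 1 RPKM or more in all litters lay 23 to 294 kb from a cluster edge. Such windows are sparse on the autosomes as well (1.21%), and whether these distances are unusual was not tested. On the high side the nearest lay 23 kb from Hoxb, with 360, 224 and 639 alignments in litters 1 to 3, and 67 kb from Hoxa, with 362, 224 and 133. For Hoxd it lay 109 kb away and for Hoxc 152 kb away. On the low side the distances were 67 kb for Hoxc, 86 kb for Hoxb, 140 kb for Hoxd and 294 kb for Hoxa. Within the 4000 flank windows such windows numbered 16 and 14 of 500 on the sides of Hoxc, 14 and 9 for Hoxb, 1 and 9 for Hoxa, and 2 and 2 for Hoxd (low side first). These are 3.2% and 2.8% for Hoxc, 2.8% and 1.8% for Hoxb, 0.2% and 1.8% for Hoxa, and 0.4% on each side of Hoxd. The autosomal share is 1.21%.

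**Figure D5:**
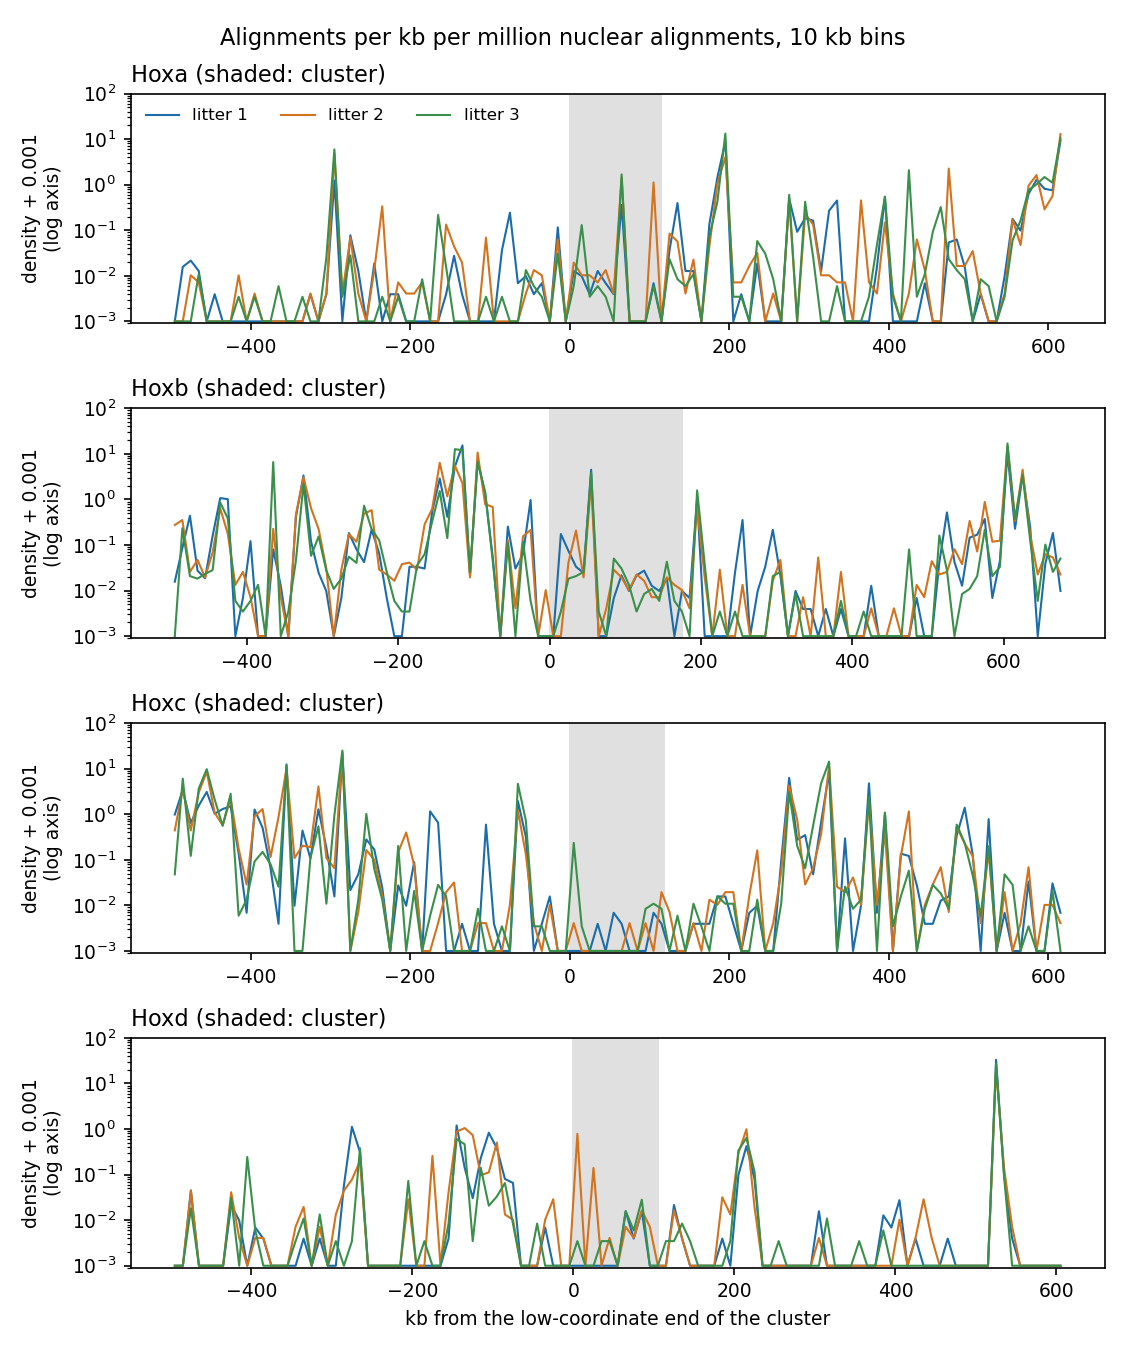
Density in 10 kb bins (RPKM plus 0.001, log axis) over each cluster (shaded) and 500 kb on either side, with a line for each litter and the distance in kb from the low-coordinate end of the cluster. Inside Hoxc and Hoxd the lines stay low apart from single-litter points, and the peak on the high side of Hoxd is the 10 kb bin that holds most of that flank.

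Repeated alignments, those beyond the first at a start position of a litter, were a smaller share in Hoxc and Hoxd than over the autosomes. They made up 0%, 0% and 9.43% of alignments in Hoxc and 0%, 27.1% and 9.09% in Hoxd in litters 1 to 3. Those shares rest on 7, 9 and 106 alignments in Hoxc and 11, 310 and 22 in Hoxd. At 7, 9 or 11 alignments a share of 0% says little, since the share depends on the number of alignments. In Hoxa repeated alignments made up 12.2%, 33.7% and 55.4%, and in Hoxb 69.2%, 49.9% and 71.6%. The share of Hoxa in litter 1, at 139 alignments, was thus below that of Hoxd in litter 2, at 310. Over the autosomes they made up 72.4%, 64.9% and 74.0%. Counted by distinct start positions, the log2 difference from the median autosome was -0.65 for Hoxa, -0.50 for Hoxb, -3.47 for Hoxd and -4.65 for Hoxc, with the same direction as before, although Hoxa in litter 2 lay above the median autosome, at 1.14 times its level.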

How the data were processed

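Per the submitters' processing notes, the aligner was Bowtie and the genome build mm9. How reads with several matches were handled is not given in the sources used here. RNA had been amplified with SPIA (Nugen Ovation kit), per the labels. The deposited values are coverage (signal), unscaled whole numbers of aligned reads over each base, as a bedGraph track per the file headers. Coverage split exactly into ungapped 72-base alignments, with 0 negative starts on nuclear sequence in every litter; the strand is unknown. The recovery, the block finder and the search for recurring counts were checked on simulated data.

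An alignment belongs to the window where it starts. Recurring counts were searched over start positions with an alignment in every litter and 6 or more in all, at a fixed offset in either orientation, keeping places with at least 10 equal positions and 5% of those used, in stretches with at least 20. The windows named were the blocks covered in all litters (up to 10), the window with the most alignments in each cluster, and in the flanks the nearest at 1 RPKM in all litters. The search for recurring counts and its rule, the 500-base block limit, the division of each cluster into 4 parts and the strongest 10 kb of each flank were chosen, and windows high in 1 litter, and those with at least 3 alignments in all, were added, after values were seen. The regions and measures were chosen with earlier results of these data known. No mm9 annotation or sequence was used here, so no gene was assigned to a window and no sequence is shown. Litters are separate collections per the labels. Alternatives were the coverage rule, window size, depth, block rules, denominators, flank size, distinct starts and leaving out each litter. Scripts ran in Python 3.11.15 with matplotlib 3.10.9, numpy 2.4.6 and pandas 2.3.3.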

Additional observations from a re-analysis of the deposited data

How the results depend on the processing

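Of 119 alternative values, 97 kept their direction, or stayed within 1 SD or 1.5 times of the value reported. Of 69 alternatives for levels, 5 turned the direction. Many of the others could not turn it, so this tally is no measure of robustness. Leaving out a litter cannot turn a mean where all 3 litters lay below. Leaving out the deepest windows or blocks lowered means that were already below. Hoxc and Hoxd have no block of at least 500 bases, so leaving out blocks left their values unchanged. Against the median 100 kb tile the log2 difference became 2.38 for Hoxa and 3.39 for Hoxb, and against the median 10 kb flank window (pseudocount 0.1) it became 1.14 for Hoxa, 1.40 for Hoxb and 0.35 for Hoxd. A mean level is there set against the median of windows that are mostly near empty. The level of Hoxd was below the pseudocount in every litter, so its turn does not place it against the typical flank window. No level passed a threshold in any setting, since 3 litters allow no p below 0.25.

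The mean percent of covered windows moved from 14.5% to 4.30% with at least 3 alignments, 6.71% with at least 2 distinct starts, 8.37% with windows of 500 bases and 24.6% with windows of 2 kb. The percent covered in all litters moved from 5.27% to 1.17%, 1.37%, 2.54% and 10.2% in the same order. The autosomal mean moved in that order from 12.4% to 7.76%, 8.85%, 7.76% and 19.7%. In all litters the autosomes moved from 5.50% to 3.36%, 3.89%, 3.10% and 9.80%. Without a litter, the cluster values ranged from 13.7% to 15.5%, against 11.5% to 13.0% on the autosomes. In both litters left they ranged from 6.64% to 8.20%, against 6.71% to 7.59%. Thinning litters to equal depth gave 13.9% and 4.69%, against 12.1% and 5.30%. For windows covered in all litters used, the clusters exceeded the autosomes only with windows of 2 kb and without litter 1 or litter 2. Blocks numbered 8 with no gap joined, 2 with at least 2 alignments over each base, and 9 to 16 without a litter. Autosomal blocks were not counted in these settings.

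Without a litter, the rank among tiles ranged from 12.4% to 42.7% for Hoxc and from 27.2% to 57.1% for Hoxd. Windows covered in both litters left were 30.1% to 35.9% of those covered in either, a stricter measure than the share of each list above. With 1 group, no pairing between groups exists, and each level was compared within its litter. The flank of 1 Mb on the high side of Hoxc ends at the chromosome end. Counts of 1 or 2 alignments in a window are at the limit that a count of 0 allows, so single windows at that depth carry no level.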
